A study of Schizosaccharomyces pombe with 2 samples.

Results

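Stretches of fission yeast chromosome 2 that are strongly transcribed from one strand and quiet on the other were examined in 2 histone chaperone mutants. Members are 1-kb windows of the tiled block from 1000001 to 3050000, leaving out 1590001 to 1660000, 2100001 to 2160000, 1812001 to 1821000 and 1964001 to 1974000. They were chosen by wild-type signal alone. The log2 of the background-subtracted wild-type intensity was taken as the median over the probes of each window and strand and averaged over both arrays. A member has one strand below the median of these values (9.02) and the other at or above their 75th percentile (12.32). There were 840 members among 1901 windows of the block measured on both strands, or 44.2%, and 2204 windows measured on both strands on the whole array. The brighter strand of a member is called transcribed and the other quiet. The windows are called euchromatic only in that the intervals named above were left out, and no chromatin mark was measured.

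The study compared asf1-1 cells and ∆hip1 cells, which lack hip1, with wild-type cells, all grown exponentially in the rich medium YEA at 30 °C. There was 1 array for asf1-1 and 1 for ∆hip1. On each, the mutant cDNA carried Cy5 and wild-type cDNA carried Cy3, with no dye swap, so genotype and dye cannot be told apart. No other allele, strain background or treatment is given in the labels. With 1 array per mutant there is no replicate, so values are compared without any test or p-value.

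Asf1 and Hip1 act in the assembly of nucleosomes, Hip1 mainly outside of DNA replication. Asf1 binds histones H3 and H4 and hands them to other chaperones, among them the HIRA complex, of which Hip1 is a subunit. On transcribed genes, nucleosomes displaced by RNA polymerase have to be put back behind it. In yeasts, loss of factors that do this is known to allow transcription to start inside genes and on the antisense strand. A window with one busy strand and one quiet strand is where such RNA can be measured, since the quiet strand starts from a low level.

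The arrays carried 43993 probes of 60 bases, alternating between strands. Between 88.8% and 93.9% of probes were well above background in the mutant channel, and between 78.9% and 79.6% in the wild-type channel. Positions follow the array files, and their genome build was not given in the sources used here. Probes are not paired with genes in the files. Windows are therefore given by position, and genes and sequences were not analysed here. The strand is the order of start and end in the files, which do not say whether it is that of the RNA. Ratios are log2 mutant over wild type after intensity-dependent (loess) normalization, taken as the median over the probes of 1 strand. Each window's SD is that of its probes, so it reflects differences between spots and no replicate.

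Members lay on both strands, with the plus strand transcribed in 439 and the minus strand in 401. In segments of 100 kb with at least 50 windows, between 32.0% and 52.0% of windows were members. Of the 840 members, 228 had no neighbouring member with the same transcribed strand, and 612 lay in runs of 2 or more. There were 96 runs of 3 or more windows, which held 358 members, and the longest had 11. The members nearest to the upper threshold had 12.322 to 12.335 on the transcribed strand, and the nearest windows left out had 12.316 to 12.321. At the lower threshold the nearest members had 8.9523 to 8.9691 on the quiet strand, and the nearest windows left out had 9.0279 to 9.0425.

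The levels of both strands in each channel are given first. Before normalization the transcribed strand had a median log2 intensity of 13.26 in asf1-1 RNA, against 13.48 in wild-type RNA on the same array. On the ∆hip1 array it had 12.77 in ∆hip1 RNA, against 13.37 in wild-type RNA. The quiet strand had 9.38 in asf1-1 RNA against 6.81 in wild-type RNA, and 7.80 in ∆hip1 RNA against 6.15 in wild-type RNA. Levels of different probes also differ by how well each probe binds, so a gap between strands has meaning only across channels. The transcribed strand exceeded the quiet one by 3.92 (median) in asf1-1 and 6.71 in wild type on the same array, and by 4.99 in ∆hip1 and 7.15 in wild type on the other. These unnormalized gaps include any difference in how the dyes report dim and bright spots. The share of quiet-strand probes well above background was 92.3% in asf1-1 and 65.1% in wild type, and 84.1% in ∆hip1 and 61.7% in wild type.

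**Figure D1:**
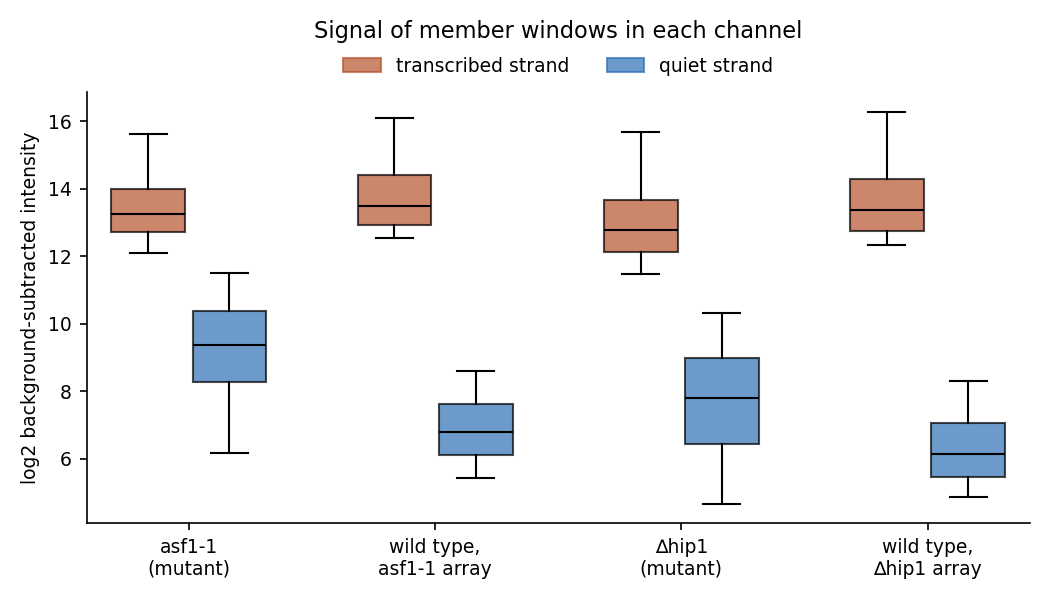
Log2 background-subtracted intensity (y axis) of the 840 members in each channel, before normalization, with the transcribed strand in brown and the quiet strand in blue. Boxes span the quartiles with the median as a line, and whiskers the 5th to 95th percentile of windows. The medians of the quiet strand are 9.38 in asf1-1 and 7.80 in ∆hip1, against 6.81 and 6.15 in the wild-type channels.

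In asf1-1 RNA the transcribed strand was the brighter one in 833 of 840 members, and in ∆hip1 RNA in 837. The same probes were chosen for a wide gap in wild type, of at least 3.28 on either array, so these counts are a description. The exceptions were picked out after their values were seen, and all had a quiet strand well above wild type. In ∆hip1 they were the windows on chromosome 2 with transcribed strands at 2027061 to 2028020 (plus), 2177011 to 2177970 (minus) and 2317011 to 2317970 (minus). In the window at 2317011 the quiet strand exceeded the transcribed one by 0.89 in asf1-1 RNA and 0.25 in ∆hip1 RNA, on the log2 intensity scale. Its normalized log2 ratio was 2.10 on the quiet and -1.37 on the transcribed strand in asf1-1, and 2.71 and -0.84 in ∆hip1. In the window at 2177011 the quiet strand had 2.53 and 2.78, and the transcribed strand -1.16 in asf1-1 and -0.72 in ∆hip1. In the window at 2027061 the quiet strand had 2.54 in asf1-1 and 3.30 in ∆hip1. In these windows the quiet strand stood more than 2-fold above wild type on both arrays.

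On the transcribed strand most members stayed close to wild type under loess scaling. The median log2 ratio of the 840 members was -0.17 in asf1-1, with the middle of the distribution between -0.52 and 0.16 (quartiles). In ∆hip1 the median was -0.11, with quartiles of -0.34 and 0.10. In asf1-1, 14 members were higher and 42 lower by a factor of 2 or more, against 13.6% higher and 7.42% lower among all 4380 windows and strands of the array. In ∆hip1 10 were higher and 6 lower, against 12.7% and 3.61%. The rule chose this strand for high wild-type signal, and each ratio divides by that signal, so these shares are a description and nothing is read from them. With median centring in place of loess the median was -1.08 in asf1-1 and -0.772 in ∆hip1, and 480 and 203 members were at least 2-fold lower. The share over all windows and strands is not given for median centring. The level of the transcribed strand relative to wild type therefore depends on the scaling.

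Some transcribed strands stood well above wild type on both arrays. The largest was on the minus strand at 2662011 to 2662970. Its normalized log2 signal was 17.46 in asf1-1 against 12.66 in wild type, and 16.73 in ∆hip1 against 11.84 in wild type. The ratio on the log2 scale was 4.74 ± 2.31 in asf1-1 and 4.73 ± 2.09 in ∆hip1 (SD over 10 probes). Its quiet strand did not follow, at -0.44 and -0.29. The SD shows that probes inside this window differed widely.

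The minus strand at 2518011 to 2518970 was even along the window. Its signal was 14.79 in asf1-1 against 12.34 in wild type, and 13.62 in ∆hip1 against 12.33 in wild type. The ratio was 2.40 ± 0.14 in asf1-1 and 1.27 ± 0.10 in ∆hip1 (SD over 10 probes). The minus strand at 1045011 to 1045970, already bright in wild type, had 17.72 in asf1-1 against 15.56, and 17.27 in ∆hip1 against 15.80, for ratios of 2.04 ± 0.98 and 1.36 ± 0.68. Neighbouring plus-strand windows at 2950061 to 2951020 and 2951061 to 2952020 were both higher than wild type, with ratios of 1.81 ± 1.19 and 1.93 ± 0.56 in asf1-1 and 1.06 ± 0.77 and 1.34 ± 0.17 in ∆hip1. On the quiet strand of that pair the ratios were negative, at -1.28 and -1.17 in asf1-1 and -1.25 and -0.82 in ∆hip1.

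The lowest transcribed strand was on the plus strand at 2446061 to 2447020. Its signal was 11.09 in asf1-1 against 12.71 in wild type, and 10.92 in ∆hip1 against 12.66 in wild type. The ratio was -1.70 ± 0.66 in asf1-1 and -1.74 ± 0.44 in ∆hip1 (SD over 7 probes). There the quiet strand went the other way, with 1.34 and 1.42. The plus strand at 1772061 to 1773020 was next, with 13.00 in asf1-1 against 14.63 and 13.15 in ∆hip1 against 14.35. Its ratio of -1.61 ± 0.11 and -1.20 ± 0.05 was uniform over 8 probes. At 2010061 to 2011020 (plus) the ratio was -1.56 ± 0.12 in asf1-1 and -0.91 ± 0.14 in ∆hip1 (SD over 7 probes). No transcribed strand was 4-fold lower in either mutant. Of those past 4-fold upward, there were 3 in asf1-1 and 1 in ∆hip1, with no share over all windows and strands given at 4-fold.

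Under loess scaling the 8 brightest members, like most members, stayed within 2-fold of wild type on the transcribed strand. Under median centring 480 of the 840 members were at least 2-fold lower in asf1-1 and 203 in ∆hip1. Values of these 8 under median centring are not given. Of the 8 windows with the highest wild-type signal, between 17.06 and 17.29 on the log2 scale, none reached 2-fold on the transcribed strand. The very brightest, on the plus strand at 1794061 to 1795020, had 17.22 in asf1-1 against 17.45 in wild type and 17.51 in ∆hip1 against 17.22 in wild type, for ratios of -0.29 ± 0.60 and 0.23 ± 0.44. The lowest among these 8, at 1107061 to 1108020, had -0.56 ± 0.41 and -0.34 ± 0.30 (SD over 10 probes). Bright members did pass 2-fold in the wider set with the transcribed strand at or above the 90th percentile. Of these 360, 24 were lower and 5 higher in asf1-1, and 1 lower and 3 higher in ∆hip1.

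The quiet strand of most members was above wild type in both mutants. Its median log2 ratio over the 832 members with at least 3 measured probes was 0.42 in asf1-1 (quartiles -0.03 and 0.88) and 0.36 in ∆hip1 (quartiles -0.02 and 0.95). The other 8 members had too few measured probes. A probe counted as measured if well above background in at least 1 of 4 channels, so it could enter through a mutant channel alone. With no filter on dim probes the medians were 0.38 in asf1-1 and 0.333 in ∆hip1. With probes well above background in all 4 channels they were 0.422 and 0.51. The ratio was above 0 in 73.0% of the 832 members in asf1-1 and 72.8% in ∆hip1. At least 2-fold higher were 157 (18.9%) in asf1-1 and 200 (24.0%) in ∆hip1, while 16 and 10 were at least 2-fold lower. The shares for all windows and strands, given above, are 13.6% and 12.7% higher, and 7.42% and 3.61% lower. In one-stranded windows with the brighter strand between the thresholds, 32.5% and 29.4% of dimmer strands were at least 2-fold higher. In windows transcribed on both strands this was 20.5% and 22.8%, and in windows quiet on both strands 7.2% and 5.4%. A share above that of all windows was thus not particular to members. The rule chose the quiet strand of members for low wild-type signal, which raises its ratio wherever that signal was low by error. Their count is again a description. When members were chosen from every other probe and the ratio was taken from the remaining probes, the median was 0.416 in asf1-1 and 0.339 in ∆hip1. Both sets of probes were read in the same wild-type channels, so that split does not remove error shared by neighbouring probes. Nor does it remove the effect of a wild-type extract that both arrays may share.

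The size of the quiet-strand difference depends on the scaling and on which members are taken. The sign of its median did not change in the settings tried. The median ranged over 0.18 to 1.24 for asf1-1 and 0.131 to 0.883 for ∆hip1. The lowest values came from members with the transcribed strand at or above the 90th percentile, and the highest from median centring. The count at least 2-fold higher was 369 and 362 with the scanner's own log ratio, and 496 and 377 with median centring. The share over all windows and strands is not given under these scalings, so nothing particular to members is read from the counts. Among the members called higher, the wild-type channel had at least 5 probes well above background in 145 of 157 in asf1-1 and in 183 of 200 in ∆hip1. Of those same members, 1 in asf1-1 and 0 in ∆hip1 had no quiet-strand probe above background in wild type. At least 4-fold higher were 25 in asf1-1 and 39 in ∆hip1, with no share over all windows and strands given at 4-fold. Members with the plus strand transcribed had a quiet-strand median of 0.42 in asf1-1 and 0.40 in ∆hip1, and those with the minus strand transcribed 0.42 and 0.33. Over the 19 segments of 100 kb with at least 50 windows the median ranged over 0.10 to 0.69 for asf1-1 and 0.10 to 0.51 for ∆hip1. In a segment with fewer windows, 2100001 to 2200000 with 22 members, it was 0.04 for asf1-1 and -0.05 for ∆hip1.

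**Figure D2:**
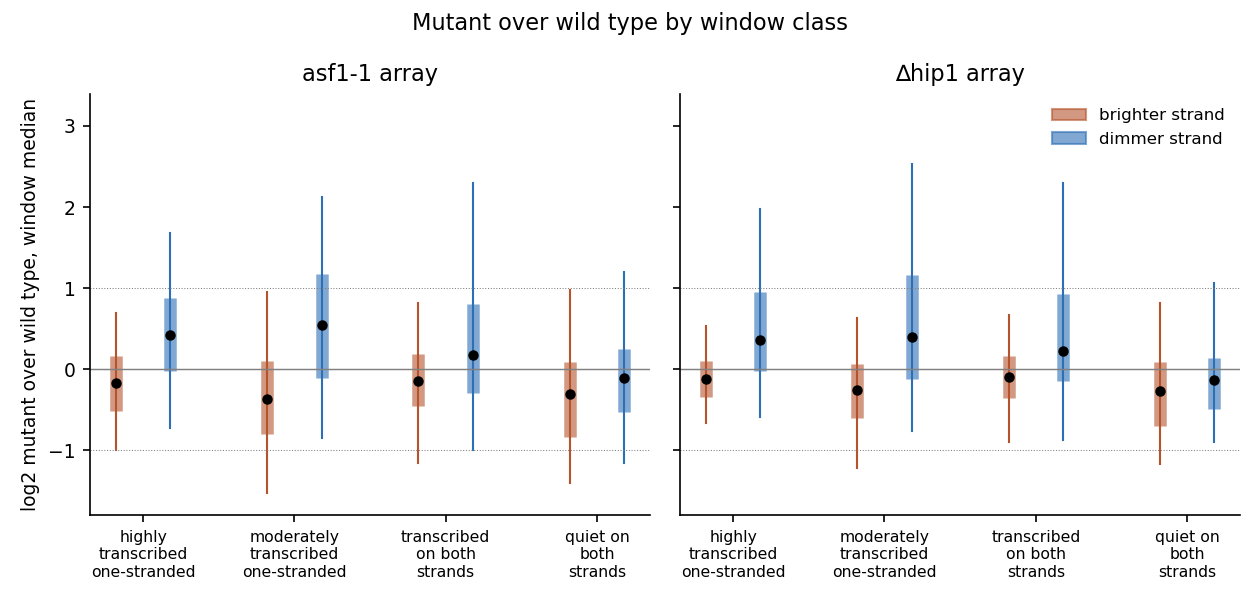
Log2 mutant over wild type (y axis, window medians) on the asf1-1 array (left) and the ∆hip1 array (right) for members and for the other classes of window, brighter strand in brown and dimmer strand in blue. Dots are medians, thick bars quartiles, thin lines the 5th to 95th percentile, and dotted lines mark 2-fold. In members the dimmer strand has medians of 0.42 and 0.36 and the brighter strand -0.17 and -0.11.

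The highest quiet strand was on the plus strand at 2507061 to 2508020. Its signal was 12.63 in asf1-1 against 8.80 in wild type, and 12.31 in ∆hip1 against 8.76 in wild type. On the log2 scale the ratio was 3.88 ± 2.24 in asf1-1 and 3.68 ± 2.10 in ∆hip1 (SD over 10 probes), or 14.7-fold and 12.8-fold. The transcribed strand of the same window stood at 0.07 and -0.04, close to wild type. Its probes on the quiet strand again differed widely.

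Other quiet strands were higher more evenly along the window. The minus strand at 2644011 to 2644970 had 11.66 in asf1-1 against 9.07, and 11.79 in ∆hip1 against 9.06, for ratios of 2.65 ± 0.62 and 2.75 ± 0.54 (SD over 10 probes). Its transcribed strand had -0.96 in asf1-1 and -0.95 in ∆hip1. The minus strand at 2261011 to 2261970 had ratios of 2.71 ± 0.59 and 2.64 ± 0.54, with -1.32 and -0.85 on the transcribed strand. The plus strand at 1536061 to 1537020 had 2.63 ± 0.36 and 2.27 ± 0.24 (SD over 9 probes), with -0.55 and -0.19 on the transcribed strand.

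In ∆hip1 the next highest quiet strands were on the minus strand at 2265011 to 2265970, 2015011 to 2015970 and 2027011 to 2027970. At 2265011 the signal was 10.80 in asf1-1 against 8.57, and 11.87 in ∆hip1 against 8.60, for ratios of 2.26 ± 1.35 and 3.43 ± 1.61. At 2015011 they were 2.48 ± 0.88 and 3.32 ± 1.18, and at 2027011 they were 2.54 ± 0.90 and 3.30 ± 0.72. All 3 had a higher ratio in ∆hip1 than in asf1-1. They were picked by their ∆hip1 ratio, which favours that order, so nothing about the mutants is read from it. Counted among members only, the 157 windows past 2-fold in asf1-1 formed 139 runs, of which 124 were lone windows. The 200 in ∆hip1 formed 165 runs with 134 lone windows. All 840 members formed 451 runs with 228 lone windows, and windows outside the members were not counted. Whether quiet strands past 2-fold are isolated was not tested.

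Few quiet strands were lower than in wild type by 2-fold. The plus strand at 2782061 to 2783020 had 7.38 in asf1-1 against 9.31 in wild type and 7.45 in ∆hip1 against 9.65, for ratios of -1.90 ± 0.85 and -1.66 ± 0.93 over 6 probes. The minus strand at 1707011 to 1707970 had -1.94 ± 0.43 and -1.09 ± 0.35 (SD over 9 probes), and the plus strand at 1551061 to 1552020 had -1.62 ± 0.76 and -1.44 ± 1.16 (SD over 10 probes).

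The quiet-strand ratio exceeded the transcribed-strand ratio by 0.60 (median) in asf1-1 and by 0.49 in ∆hip1, and did so in 631 and 627 of 832 members. In moderately transcribed one-stranded windows (613, with the brighter strand between the thresholds) the difference was 0.92 and 0.76. In the 224 windows transcribed on both strands it was 0.32 and 0.30, and in 223 windows quiet on both strands 0.19 and 0.10. On the transcribed strand, at least 2-fold lower were 42 of 840 members against 111 of 613 moderately transcribed windows in asf1-1, and 6 against 54 in ∆hip1. The classes are set by wild-type signal, which these ratios divide by, and the difference between classes was not tested.

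Among members, the quiet strand was closer to wild type where the transcribed strand was brighter. In the quartile of members with the lowest transcribed-strand level (12.32 to 12.86), the quiet strand had a median ratio of 0.74 in asf1-1 and 0.66 in ∆hip1. In the quartile with the highest level (14.33 to 17.29) it had -0.01 and -0.02. At least 2-fold higher were 65 and 78 of 210 quiet strands in the lowest quartile, and 3 and 7 of 203 in the highest. Over all windows and strands the shares were 13.6% in asf1-1 and 12.7% in ∆hip1, below the lowest quartile and above the highest. The quartiles are cut on a wild-type level that the rule used. Over 832 members Spearman's rho between the quiet-strand ratio and the wild-type level of the transcribed strand was -0.39 on both arrays. The points share 2 arrays and their neighbours' probes, so this is a description. The quiet strand was also dimmest in the highest quartile, with a wild-type level of 5.98 against 6.55 in the lowest, and 55.2% of its probes were above background in wild type on the asf1-1 array against 66.6%. The part of signal in the trend was not tested.

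**Figure D3:**
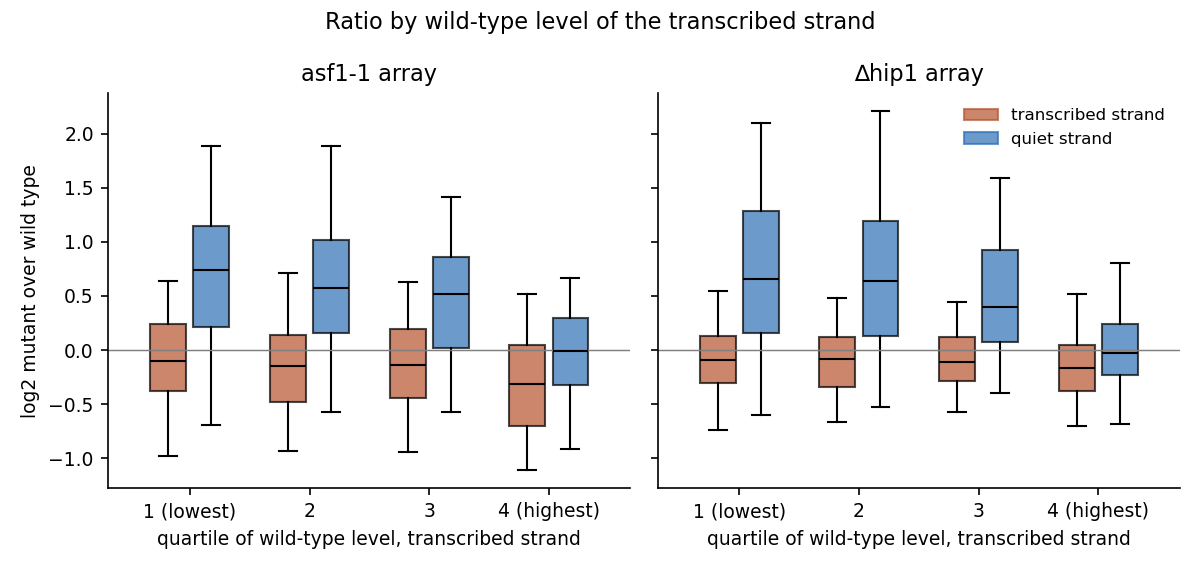
Log2 mutant over wild type (y axis) of members by quartile of the wild-type level of the transcribed strand (x axis), on the asf1-1 array (left) and the ∆hip1 array (right). Boxes span quartiles with the median as a line, and whiskers the 5th to 95th percentile. The quiet-strand medians go down to -0.01 and -0.02 in the highest quartile, and are 0.74 and 0.66 in the lowest.

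The higher quiet-strand signal was not spread evenly along transcribed stretches. The 96 runs of 3 or more members were read in the direction of the transcribed strand. On the quiet strand, the median ratio in asf1-1 was 0.70 in the first window of a run, 0.46 in inner windows and 0.09 in the last window. In ∆hip1 it was 0.69, 0.46 and 0.15. In asf1-1, at least 2-fold higher were 32 of 96 first windows (33.3%), 30 of 162 inner windows (18.5%) and 7 of 94 last windows (7.4%). In ∆hip1 these were 36 (37.5%), 37 (22.8%) and 9 (9.6%). The shares over all windows and strands were 13.6% in asf1-1 and 12.7% in ∆hip1, so last windows lay below them. If the strand in the files is opposite to that of the RNA, the first and last windows change places. The ends of runs are those of the 1-kb grid and not of transcripts.

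Comparing ends within the same run gave the same order. The quiet strand was higher in the first than in the last window in 67 of 94 runs in asf1-1 and 64 of 94 in ∆hip1, by a median of 0.65 and 0.56. Runs of 2 windows, not used above, did likewise: the first window was higher in 108 of 126 in asf1-1 and 101 of 126 in ∆hip1, by 0.52 and 0.45. This difference stayed above 0 in every setting tried on both arrays, at 0.455 to 0.877 for asf1-1 and 0.225 to 0.892 for ∆hip1. The lowest value in each range came from members with the quiet strand below the 25th percentile of wild-type signal.

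The transcribed strand had the opposite slope. Its median ratio in asf1-1 was -0.36 in first windows, -0.26 in inner windows and -0.01 in last windows, and in ∆hip1 it was -0.34, -0.20 and -0.02. The first window was the higher one in 22 of 96 runs in asf1-1 and 20 of 96 in ∆hip1. The medians of both strands were thus furthest apart in first windows and closest in last windows.

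**Figure D4:**
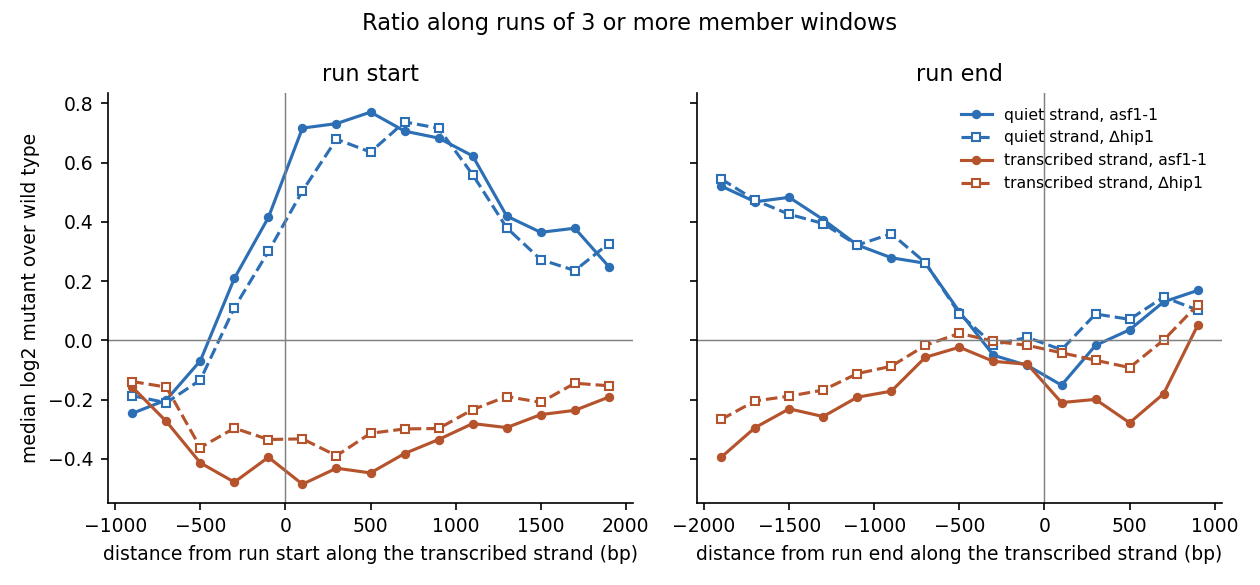
Median log2 mutant over wild type per 200-bp bin (y axis) against distance from the start (left) and end (right) of runs of 3 or more members, read along the transcribed strand (x axis, bp). Blue is the quiet and brown the transcribed strand, filled circles with solid lines asf1-1 and open squares with dashed lines ∆hip1. The quiet strand reaches 0.77 in asf1-1 and 0.74 in ∆hip1 within 1000 bp of the start and is near 0 in the bins centred at 300 and 100 bp before the end. The rule required low wild-type signal of the quiet strand inside runs only, which bears on the steps at their edges.

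Probe by probe, the quiet-strand ratio climbed across the run start. In bins of 200 bp it was -0.25 in asf1-1 and -0.19 in ∆hip1 at 900 bp before the start, and 0.72 and 0.50 at 100 bp inside it. The highest bins were centred 500 bp inside the start in asf1-1 (0.77) and 700 bp inside in ∆hip1 (0.74). By 1900 bp it was 0.25 and 0.33. At 300 bp before the run end it was -0.05 and -0.01. Each bin holds probes from between 86 and 96 runs. Inside runs the rule held the quiet strand to low wild-type signal, which this ratio divides by. Outside runs it did not. The wild-type level of the quiet strand was 7.59 in windows before the start and 6.55 in first windows. It was 6.12 in last windows and 10.89 in windows after the end. The part of the rule in the steps at the run edges was not tested.

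Wild-type signal moved with position too. The transcribed strand had a wild-type level of 13.14 in first, 13.53 in inner and 13.86 in last windows, and the quiet strand 6.55, 6.43 and 6.12. Since the quiet-strand ratio goes down with the transcribed-strand level, positions were also compared within 2 classes of level. In members under 13.41 the quiet strand had 0.88 in first windows (59), 0.67 in inner (75) and 0.28 in last windows (30) in asf1-1, and 0.89, 0.72 and 0.38 in ∆hip1. At or above 13.41 it had 0.38 (37), 0.33 (87) and -0.003 (64) in asf1-1, and 0.42, 0.29 and 0.07 in ∆hip1. The order of first over last held in both classes on both arrays. The classes do not make the wild-type levels equal. Under 13.41 the quiet strand had a wild-type level of 6.45 in first and 6.19 in last windows. At or above 13.41 it had 6.88 and 6.10, and the transcribed strand 14.03 and 14.34. The part of these levels in the order was not tested.

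The windows next to runs were unlike at the start and the end. Before the start, the quiet strand of the neighbouring window was at or above the upper threshold in 3 of 94 runs and below the median in 70. After the end, it was at or above the upper threshold in 35 of 96 and below the median in 40. So runs that met a transcribed stretch of the other strand mostly did so at their end. In last windows the quiet-strand median was -0.03 in asf1-1 and 0.20 in ∆hip1 beside such a neighbour (33 measured), and 0.16 and 0.15 beside a neighbour below the median (40). In first windows it was 0.63 and 0.51 beside a neighbour below the median (70), and 0.90 and 1.12 beside one between the thresholds (21).

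Single long runs show how uneven this was. The longest run, on the minus strand from 1392011 to 1402970, has 11 windows. On its quiet strand the first window in the direction of the transcribed strand, at 1402011, had 1.02 in asf1-1 and 0.94 in ∆hip1, and the next 4 lay between 0.06 and 0.41 in asf1-1. A second peak of 0.91 and 1.28 was at 1396011. The transcribed strand of the same run was at -0.61 and -0.45 in the first window, and 0.11 and 0.03 in the last.

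The minus-strand run from 1976011 to 1982970, of 7 windows, had the highest median on the quiet strand among the 4 runs of 7 or more windows, 0.80 in asf1-1 and 1.24 in ∆hip1. Its quiet-strand ratios in asf1-1 were 0.97 in the first window and 1.82 in the next, and 0.33, 0.13 and -0.27 in the last 3. In ∆hip1 they were 1.78 in the first window and 2.45 in the next, and 0.05 and -0.23 in the last 2. Its transcribed strand ranged over -0.37 to 0.55 for asf1-1 and -0.29 to 0.10 for ∆hip1.

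The minus-strand run from 2621011 to 2627970 was lower on its transcribed strand, with -0.97 and -0.96 in asf1-1 and -1.01 and -1.02 in ∆hip1 in the windows at 2626011 and 2625011. Its quiet strand ranged over -0.30 to 0.97 for asf1-1 and 0.31 to 0.94 for ∆hip1. In the plus-strand run from 2277061 to 2284020 the highest quiet-strand ratio was in the window whose transcribed strand starts at 2279061, with 2.60 in asf1-1 and 2.32 in ∆hip1. The plus-strand run from 1107061 to 1113020 held 2 of the 8 brightest members and had its highest quiet-strand ratio in the window at 1110061, with 1.63 and 2.29.

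The mutants were compared with each other through their own channels. The choice of members used no mutant signal. The normalized values compared here are still not free of the wild-type signal, because normalization sets each channel by the spot's mean intensity over both. On the transcribed strand the median log2 difference, asf1-1 over ∆hip1, was -0.08 over 840 members. There were 2 members at least 2-fold higher in asf1-1 and 0 lower, against 1.89% higher and 0.89% lower among all windows and strands. On the quiet strand the median was -0.002 over 832 members, with 9 at least 2-fold higher (1.08%) and 13 lower (1.56%). Which direction had more members depends on the scaling, with 26 higher and 3 lower under median centring, and 16 and 14 without background subtraction. The SD over members was 0.29 on the transcribed and 0.40 on the quiet strand. For the wild-type channels of the same arrays it was 0.14 and 0.24, the only measure of repeatability at hand, since whether they hold 1 extract is not given.

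**Figure D5:**
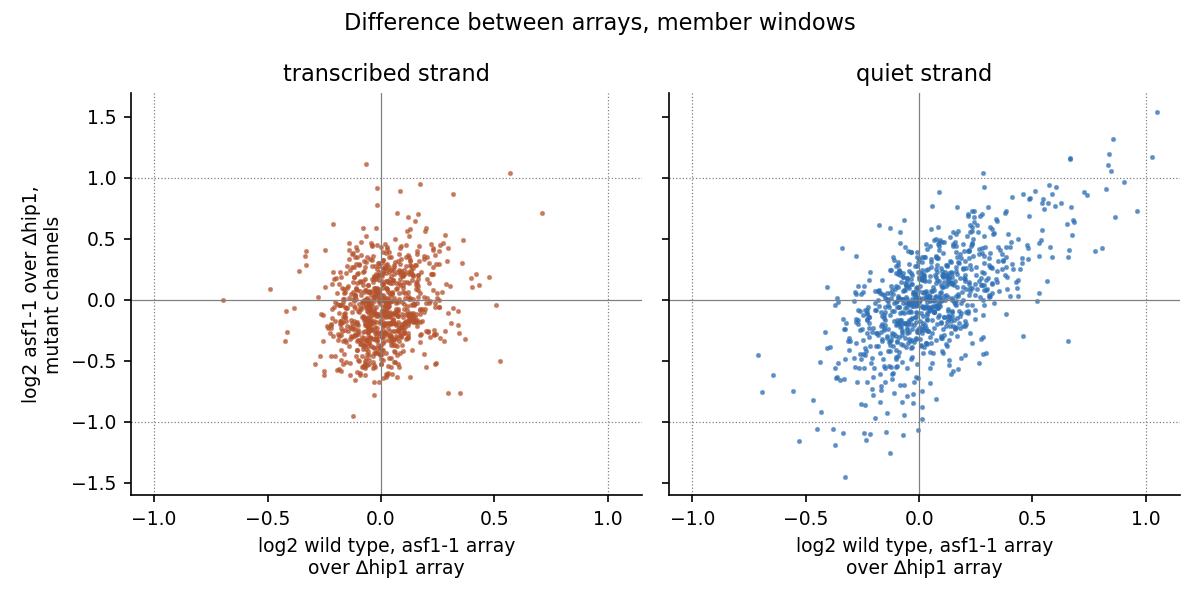
Log2 asf1-1 over ∆hip1 signal in the mutant channels (y axis) against the log2 difference between the wild-type channels of the same arrays (x axis), each point a member, transcribed strand left and quiet strand right. Dotted lines mark 2-fold. On the quiet strand the 9 members past 2-fold upward and the 13 past 2-fold downward have a wild-type difference of the same sign.

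On the quiet strand the wild-type channels moved with the mutant channels. All 9 members at least 2-fold higher in asf1-1 had more wild-type signal on the asf1-1 array too, with a median mutant difference of 1.16 beside a wild-type difference of 0.84. All 13 lower members had less, with a median of -1.10 in the mutant and -0.24 in the wild-type channels. Both channels of a spot share its mean intensity in these values, so a spot that is brighter on one array raises both. The part of this in the differences was not tested.

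The members past 2-fold on the transcribed strand were not alike in wild type. At 2518011 to 2518970 (minus), described above, the signal was 14.79 in asf1-1 against 13.62 in ∆hip1, a difference of 1.11 ± 0.10 (SD over 10 probes), while the wild-type channels differed by -0.07. At 1749011 to 1749970 (minus) the difference was 1.04 ± 0.36, with 0.57 in wild type. The lowest was -0.96 ± 0.45 at 2959011 to 2959970 (minus), with 12.03 in asf1-1 against 13.08 in ∆hip1 and -0.12 between the wild-type channels.

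On the quiet strand the largest difference was on the plus strand at 1032061 to 1033020. The signal was 11.02 in asf1-1 against 9.54 in ∆hip1, a difference of 1.54 ± 0.40, and the wild-type channels differed by 1.05. The smallest was on the minus strand at 2457011 to 2457970, with 8.96 in asf1-1 against 10.45 in ∆hip1, a difference of -1.46 ± 0.53 (SD over 10 probes) and -0.33 between the wild-type channels. Its ratio over wild type was 0.67 ± 0.46 in asf1-1 and 1.98 ± 0.97 in ∆hip1. Next to it in size was the minus strand at 2635011 to 2635970, with a difference of -1.26 ± 0.39, and ratios over wild type of 0.80 in asf1-1 and 1.91 in ∆hip1. No member had one mutant at least 2-fold higher and the other at least 2-fold lower than wild type on the same strand.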

How the data were processed

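Ribosomal RNA-depleted RNA was copied into labelled cDNA and hybridised to 2-colour Agilent arrays, 1 for each of 2 mutants, per the labels' protocols. Deposited intensities, taken as spot and background medians, came from Agilent Feature Extraction 10.1.1.1, per the file headers. The deposited log10 ratio of red over green, and the p-value of a single spot's ratio, were computed by the same software, per the file headers. The deposited series table holds log2 values. On the files these equalled the scanner's ratio, with 0 in place of any probe whose p-value exceeded 0.05 (36.1% of probes for asf1-1 and 43.1% for ∆hip1). Its column medians were 0, and its scale and direction were found from the scanner values.

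In limma 3.58.1 (R 4.3.3) intensities were background-corrected with normexp (offset 50) and loess-normalized array by array, giving no weight to outlier spots and 1227 control spots. Single channels were set between arrays with the Aquantile method, which leaves ratios as they are. The raw median log2 ratio before normalization was 0.84 for asf1-1 and 0.14 for ∆hip1. Windows of 1000 bp needed 3 probes per strand. For the choice of members any probe other than a control counted. For ratios only probes counted that were no outliers and were well above background in at least 1 of 4 channels. Tables were made with Python 3.11.15, pandas 2.3.3 and numpy 2.4.6, and the steps were tested on simulated data.

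Windows were named by rule: the 8 brightest, the 5 highest and 5 lowest per strand and mutant among those with at least 5 probes and 80% of them on the side of the window's value, the 4 largest and 4 smallest differences between mutants, and the 5 longest runs (of 3 runs tied at 6 windows, the one with the lowest position). Members and lists were chosen with earlier results of these data known. The number of arrays limits the precision.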

Additional observations from a re-analysis of the deposited data

How the results depend on the processing

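Of 345 values recomputed under the alternatives, 252 stayed within 0.25 on the log2 scale, 1.5 times for a count or 5 percentage points for a share, and 93 moved further; the cause was not tested. Values are given for asf1-1 and then ∆hip1. Shares over all windows and strands are given above for the loess scaling at 2-fold only, so the counts below have none beside them. With the scanner's log ratio the quiet-strand median was 0.809 and 0.729, its excess over the transcribed strand 1.13 and 0.877, quiet strands at least 2-fold higher 369 and 362 and lower 50 and 52, transcribed strands lower 80 and 15, transcribed strands higher in ∆hip1 6, and the first-minus-last difference in ∆hip1 0.892. With the series table the quiet-strand median in asf1-1 was 0.73 and its excess 0.951, quiet strands higher were 340 and 331 and lower 46 and 44, transcribed strands lower 80 and 15, and higher in ∆hip1 6. With median centring the transcribed-strand median was -1.08 and -0.772, the quiet-strand median 1.24 and 0.883 and the excess 2.35 and 1.68. Transcribed strands higher were then 3 and 3 and lower 480 and 203, and quiet strands higher 496 and 377 and lower 0 and 1. Between the mutants, asf1-1 over ∆hip1, it gave 26 higher and 3 lower on the quiet strand and 0 higher and 3 lower on the transcribed strand. With loess fitted on bright probes the quiet-strand median was 0.894 and 0.708 and the excess 1.04 and 0.817, quiet strands higher in asf1-1 were 353, quiet strands lower 5 and 5, and 8 quiet strands were lower in asf1-1 than in ∆hip1.

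At 1.5-fold, transcribed strands higher were 55 and 36 and lower 177 and 64, and quiet strands higher 336 and 325 and lower 63 and 43; between the mutants 16 transcribed strands were higher and 22 lower, and 59 quiet strands higher and 56 lower. With crossed wild-type channels quiet strands lower in asf1-1 were 30 and transcribed strands lower in ∆hip1 12. With means over probes quiet strands lower in ∆hip1 were 5 and transcribed strands higher in asf1-1 9. Without background subtraction quiet strands lower in asf1-1 were 28, and with probes above background in all 4 channels 31; quiet strands higher in asf1-1 than in ∆hip1 were 16 in each. With no filter on dim probes quiet strands lower were 10 and 6. With members from every other probe 1 transcribed strand was higher in asf1-1 than in ∆hip1.

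With the transcribed strand at or above the 90th percentile there were 360 members, transcribed strands higher were 5 and 3 and lower 24 and 1, quiet strands higher 22 and 36 and lower 5 and 3, and between the mutants 1 transcribed strand was higher and 3 quiet strands lower. With the quiet strand below the 25th percentile there were 491 members, transcribed strands higher were 7 and 5, lower in asf1-1 15, quiet strands higher 63 and 70 and lower 5 and 2. Between the mutants 1 transcribed strand was then higher, and 4 quiet strands higher and 3 lower, and the first-minus-last difference in ∆hip1 was 0.225. The alternative on runs and position under settings other than those planned for it was chosen later, after seeing the data that bear on it. No paired analysis was possible because there is a single array per mutant, so none could be left out either. Dim quiet strands limit what can be measured, with 65.1% and 61.7% of their probes well above background in wild type.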
